A study of Homo sapiens with 3 samples.

Results

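The 34 genes described here include those of the glucose and lactate transporters, the enzymes of glycolysis, and kinases that regulate it or the use of its pyruvate. Also among them are the subunits of the hypoxia-inducible factors (HIFs), the proteins that destroy those subunits, and a group of HIF target genes. The 34 genes were chosen by name, for their function, from the 17448 genes of the deposited table, and all 34 were found in it. Earlier results of these data were known when they were chosen. The RNA came from H128, an established human small cell lung cancer (SCLC) line grown as tumor cells in culture. It was collected 48 h after transfection with a control siRNA (siCont) or with 1 of 2 siRNAs against ESRRG, labelled siERRG2 and siERRG3, and the labels name neither another agent that differed between the groups nor a low-oxygen culture. Each group was 1 library, so the differences below compare libraries, have no replicate check and carry no p-value.

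Glycolysis splits glucose into pyruvate in the cytosol, and lactate dehydrogenase then turns pyruvate into lactate, which leaves the cell through monocarboxylate transporters. Where oxygen is plentiful, EGLN prolyl hydroxylases mark the HIF alpha subunits, and the VHL ubiquitin ligase sends the marked subunits to destruction. Where oxygen is scarce the alpha subunits persist, pair with ARNT and bind a short DNA core in the control regions of genes for glucose uptake, glycolysis and blood vessel growth. ERRγ, the orphan nuclear receptor encoded by ESRRG, binds its own half-site in DNA, and the ERR receptors are best known as activators of genes of oxidative metabolism.

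Depth was nearly equal, with 19861937 estimated counts for siCont, 19900580 for siERRG2 and 20016780 for siERRG3. ESRRG, the targeted gene, had 806 counts in the control library against 211 (siERRG2) and 230 (siERRG3), log2 differences of -1.94 and -1.82. The 9 neuroendocrine markers analysed here each reached 10 counts in 1 library or more. Their summed level was 748 with siCont, 644 with siERRG2 and 619 with siERRG3 on the FPKM scale. Summed fibroblast markers, 6 genes, reached 22.9, 32.5 and 25.9 in the same order, and 4 leukocyte markers 4.05, 3.77 and 4.03. Most of the fibroblast sum was COL1A2, at 18.8, 26.59 and 22.85, while COL3A1, DCN and PDGFRB reached at most 0.21. The 4 endothelial markers summed to 17.9, 19.8 and 7.25, nearly all of it CDH5, while VWF was at 0 in siCont and siERRG3 and KDR at 0 in siCont. The part of these markers in the results below was not tested. In RNA from bulk cells, fewer cells of a type and less RNA per cell cannot be told apart.

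The promoters of the 4 members that follow are shown because they belong to the HIF subunit with the largest difference among those of high count (ARNT), or hold the greatest numbers of HIF core matches among members that differed between the ESRRG siRNA libraries (LDHA and BNIP3), or matches to both the HIF core and the ERR half-site (ALDOC). Each run is 300 bases, from 250 before to 50 after the start site of the RefSeq promoter entry in GRCh38.p14. It is written 5′ to 3′ on the strand of the gene. That start site can differ from the gene start in the deposited table, as it does for ARNT, LDHA and ALDOC. Capitals mark matches on either strand to the HIF core, ACGTG or GCGTG, and to the ERR half-site core AAGGTCA.

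ARNT, chr1:150876550-150876849, minus strand: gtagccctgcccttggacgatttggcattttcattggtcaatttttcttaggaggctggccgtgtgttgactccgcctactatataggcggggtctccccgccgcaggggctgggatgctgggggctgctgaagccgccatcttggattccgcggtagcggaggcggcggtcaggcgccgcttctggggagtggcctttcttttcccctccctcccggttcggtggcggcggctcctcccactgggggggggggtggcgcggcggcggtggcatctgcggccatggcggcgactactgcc
LDHA, chr11:18394313-18394612, plus strand: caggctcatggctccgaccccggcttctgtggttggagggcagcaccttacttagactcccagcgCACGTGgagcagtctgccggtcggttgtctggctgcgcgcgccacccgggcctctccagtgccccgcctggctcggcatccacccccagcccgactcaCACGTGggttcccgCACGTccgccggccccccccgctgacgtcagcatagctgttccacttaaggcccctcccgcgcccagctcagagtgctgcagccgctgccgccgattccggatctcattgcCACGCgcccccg
BNIP3, chr10:131981874-131982173, minus strand: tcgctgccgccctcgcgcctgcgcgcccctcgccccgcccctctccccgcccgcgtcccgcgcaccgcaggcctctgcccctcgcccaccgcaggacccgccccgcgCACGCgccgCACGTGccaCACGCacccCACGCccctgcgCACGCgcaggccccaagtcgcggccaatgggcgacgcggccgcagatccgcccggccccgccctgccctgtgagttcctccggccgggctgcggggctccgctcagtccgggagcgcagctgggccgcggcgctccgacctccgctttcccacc
ALDOC, chr17:28576846-28577145, minus strand: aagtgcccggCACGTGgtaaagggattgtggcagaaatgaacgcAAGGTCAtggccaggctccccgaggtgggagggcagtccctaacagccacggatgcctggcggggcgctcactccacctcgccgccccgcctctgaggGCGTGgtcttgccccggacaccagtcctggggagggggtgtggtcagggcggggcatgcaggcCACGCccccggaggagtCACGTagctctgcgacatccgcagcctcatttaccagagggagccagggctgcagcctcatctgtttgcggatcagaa

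ACGTG matched 5 times in the LDHA promoter and 2 times in that of BNIP3, where a palindromic CACGTG counts once on each strand, and GCGTG matched 1 time and 4 times. Promoters were found for 29 of the 34 members. SLC2A3, SLC16A1, VHL, VEGFA and NDRG1 had no entry. The HIF core stood in 20 of the 29, or 69.0%, against 59.3% of the 13693 promoters of genes in the table, and the ERR core stood in ALDOC and TPI1, or 6.90%, against 2.81%. The longer ERR site TCAAGGTCA matched in 0 of the 29 and in 0.212% of all. In 9 of the 29, ARNT, PDK1 and PGAM1 among them, the letters of the HIF core were not in the window. Such matches describe letters in a sequence and are not binding sites.

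Several glycolytic enzymes were among the most abundant transcripts of these cells. The deposited expression value behaves as FPKM, that is, counts set per length of transcript and per depth of library, and on that scale ENO1 stood at 2838 with siCont, 3063 with siERRG2 and 3074 with siERRG3, and GAPDH at 2758, 2842 and 3133. Both lay at or above percentile 99.95 of the detected genes of each library. ENO1 encodes enolase and GAPDH the dehydrogenase that makes the first energy-rich intermediate of the pathway. Next in siCont came LDHA with 840, ALDOA with 837, LDHB with 712, TPI1 with 689, PKM with 647 and PGK1 with 486 FPKM. The 16 enzymes from hexokinase to lactate dehydrogenase summed to 10699 FPKM with siCont, 11088 with siERRG2 and 11048 with siERRG3, and took 1.88%, 1.94% and 1.91% of all counts.

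Regulators, and HIF targets outside glycolysis, were far lower on the same scale than the abundant enzymes named above. They overlapped with the less abundant enzymes, among them PFKL at 38.7, ALDOC at 27.95 and HK2 at 15.35 FPKM in siCont. HIF1A was at 37.3 FPKM in siCont, ARNT at 21.4, VHL at 17.5 and EGLN1 at 6.41, while EPAS1, the other alpha subunit, was at 0.13. Among the targets BNIP3 reached 57.4 and VEGFA 12.7 in siCont, and ADM 1.34. CA9, the cell surface carbonic anhydrase often read as a mark of hypoxia, had 4 counts with siCont, 3 with siERRG2 and 9 with siERRG3. SLC16A3, the lactate exporter that HIF induces, had 3, 2 and 6 counts. CA9 and SLC16A3 were below 10 counts in every library, and no fold change is given for either.

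**Figure D1:**
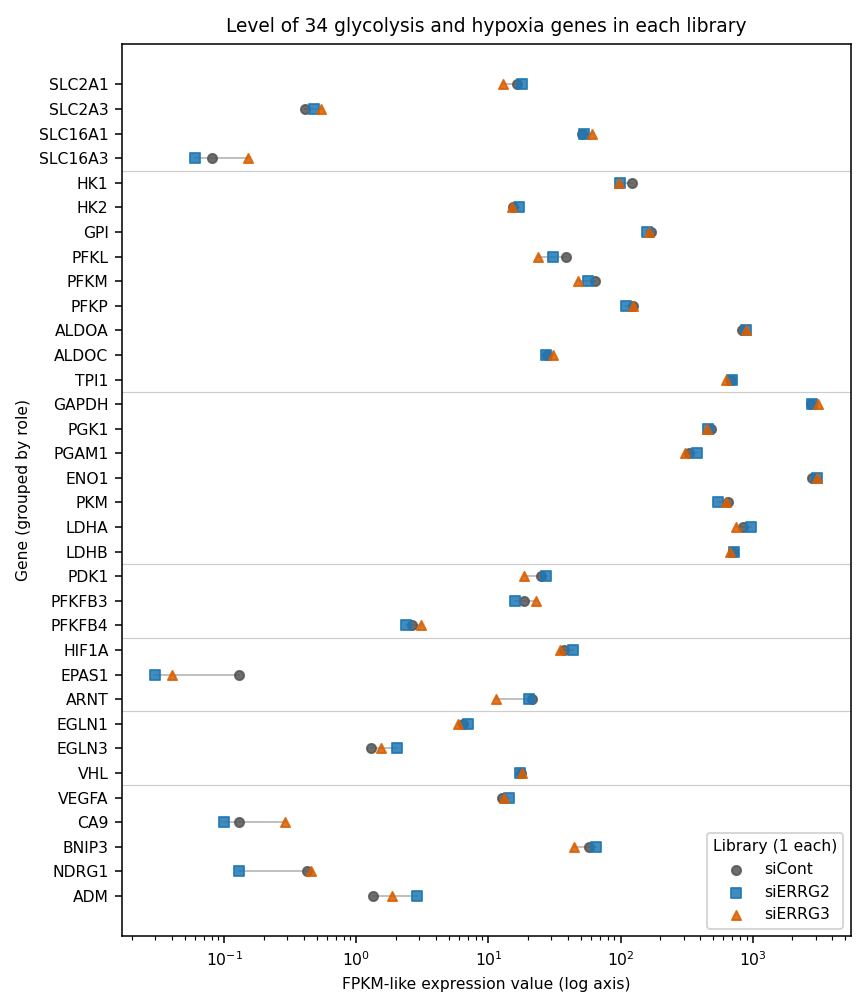
The plot gives the FPKM-like expression value of each of the 34 genes on a log axis, with 1 point per library and the genes grouped by role. Glycolytic enzymes reach 3133 FPKM, and SLC2A3, EPAS1, CA9, SLC16A3 and NDRG1 stay below 1 FPKM in every library.

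Comparisons used the 14031 genes that reached 10 counts in any library, among them 32 of the 34 members. Calls of lower or higher needed a 1.2-fold difference in TMM-scaled counts, the size of change that the study used, after adding a prior count of 2. Ratios of scaled counts are followed by their exact 95% Clopper-Pearson intervals, which cover counting error only. Of the 32 members, 6 were called in siERRG2 against siCont, or 18.8%, against 35.5% of all genes compared. In siERRG3 against siCont 12 were called, or 37.5%, against 48.3%, and in siERRG3 against siERRG2 13 were called, or 40.6%, against 51.7%. With the further condition that the interval exclude 1, the numbers called were 6, 9 and 12 of the 32 members, against 23.0%, 36.9% and 39.9% of all genes. The share of members called was below that of all genes in each of these 3 comparisons at 1.2-fold, and that difference was not tested. In siERRG2 against siCont the order turned at higher thresholds. A 1.5-fold threshold was passed by 12.5% of the members and 11.3% of all genes. A 2-fold threshold was passed by 9.38% of the members and 3.62% of all genes, the members being EPAS1, NDRG1 and ADM, all of low count. The median log2 fold change over the members was 0.023 in siERRG2 and -0.050 in siERRG3 against siCont, beside -0.000 and -0.003 over all genes compared. EPAS1 passed the low-count filter only through siCont, where it was high. Among the 29 members with a mean of at least 50 counts, 4, 10 and 12 were called in these comparisons, against 28.2%, 43.9% and 47.1% of all such genes.

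The comparisons are not independent, since both ESRRG libraries were set against the same siCont library and the third comparison uses both of them again. Values are therefore given side by side for each member, with no count of members shared between comparisons. In siERRG2, HK1, PFKL, EPAS1 and NDRG1 were called lower, 12.5% of the members compared beside 19.2% of all genes, and EGLN3 and ADM higher, 6.25% beside 16.4%. The intervals of all 6 excluded 1, as they did for 12.8% of all genes on the lower side and 10.2% on the higher. EPAS1 passed the low-count filter only through siCont, where it was high, so its lower calls here and in siERRG3 add no support. In siERRG3, SLC2A1, HK1, PFKL, PFKM, PDK1, EPAS1, ARNT and BNIP3 were called lower, 25.0% beside 25.1% of all genes, and each of these 8 intervals excluded 1, beside 19.9%. SLC2A3, PFKFB3, EGLN3 and ADM were called higher in siERRG3, 12.5% beside 23.2%, and of these only PFKFB3 had an interval that excluded 1, beside 17.1% of all genes.

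**Figure D2:**
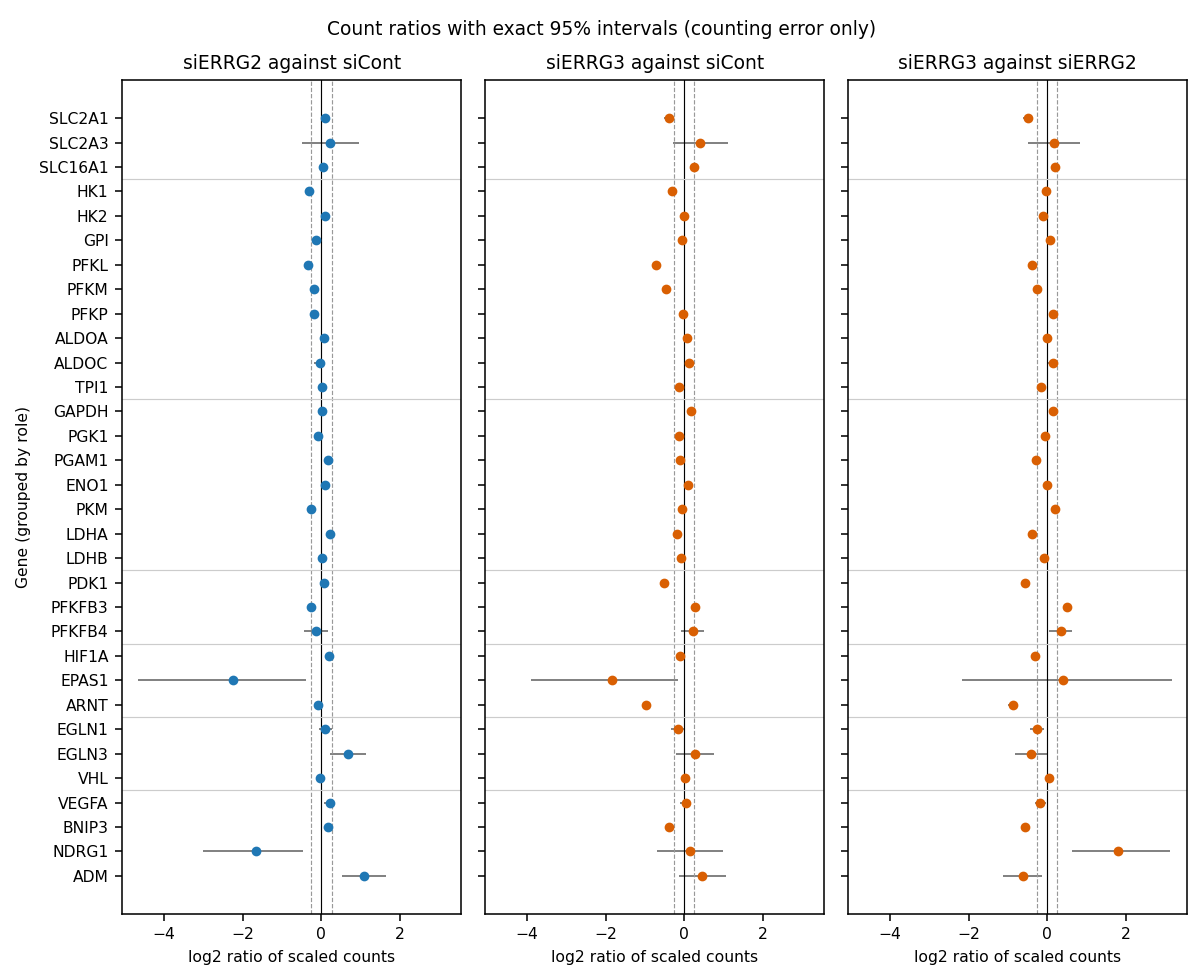
Each panel plots, for the 32 members that passed the low-count filter, the log2 ratio of scaled counts of 1 library to another with its exact 95% interval, and dashed lines mark a 1.2-fold change. Most glycolytic enzymes lie within the dashed lines, ARNT lies left of them in both panels with siERRG3, and EPAS1 and NDRG1 have the widest intervals.

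Glucose and lactate transporters are the gates of the pathway. SLC2A1, the main glucose transporter of most cells in culture, had 1219 counts with siCont, 1321 with siERRG2 and 948 with siERRG3. It was lowest in siERRG3, at a ratio of 0.765 to siCont (interval 0.702 to 0.833), while the ratio in siERRG2 was 1.07 (0.990 to 1.16). SLC2A3, the high-affinity glucose transporter of neurons, had 32, 38 and 43 counts in that order, too few to tell its ratios of 1.17 and 1.32 from 1. Its share of the summed SLC2A1 and SLC2A3 level was 2.41% with siCont, 2.61% with siERRG2 and 4.05% with siERRG3 on the FPKM scale. SLC16A1, which moves lactate and pyruvate in both directions, had 3984, 4138 and 4791 counts. It was highest in siERRG3, where the ratio to siCont of 1.18 (1.13 to 1.23) stayed just under the 1.2-fold line.

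Hexokinase and phosphofructokinase, which commit glucose to the pathway, included every glycolytic enzyme that was called lower against siCont. HK1, the hexokinase of most tissues, had 8644 counts with siCont, 7088 with siERRG2 and 7046 with siERRG3. Both ESRRG libraries were below siCont, with ratios of 0.811 (0.785 to 0.837) and 0.802 (0.777 to 0.827), and they differed from each other by less than counting error, at 0.989 (0.957 to 1.02). HK2, the isozyme that HIF and insulin induce, had 1882, 2020 and 1901 counts, with intervals that included 1 in both ESRRG libraries. The ratio of HK2 to HK1 counts was 1.31 times that of siCont in siERRG2 (exact conditional interval 1.22 to 1.41) and 1.24 times in siERRG3 (1.15 to 1.33). This ratio of counts does not depend on how the libraries are scaled. HK2 made up 11.2% of hexokinase FPKM with siCont, 14.8% with siERRG2 and 13.3% with siERRG3.

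PFKL, the liver-type phosphofructokinase, had the largest log2 differences from siCont among the 16 enzymes in both ESRRG libraries, -0.33 and -0.72. Its counts were 2274 for siCont, 1827 for siERRG2 and 1403 for siERRG3. The ratio to siCont was 0.794 (0.746 to 0.845) for siERRG2 and 0.607 (0.567 to 0.649) for siERRG3, and siERRG3 was also below siERRG2, at 0.764 (0.712 to 0.819). PFKM, the muscle type, followed the same order of libraries with 3880, 3435 and 2881 counts and ratios to siCont of 0.875 (0.836 to 0.917) and 0.730 (0.696 to 0.766). PFKP, the platelet type, had 6193, 5498 and 6155 counts, and was lowest in siERRG2. The ratio of PFKP to PFKL counts was 1.11 times that of siCont in siERRG2 (1.03 to 1.19) and 1.61 times in siERRG3 (1.49 to 1.74). PFKP made up 54.6% of phosphofructokinase FPKM with siCont, 55.4% with siERRG2 and 63.5% with siERRG3, and PFKL 17.1%, 15.7% and 12.2%.

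**Figure D3:**
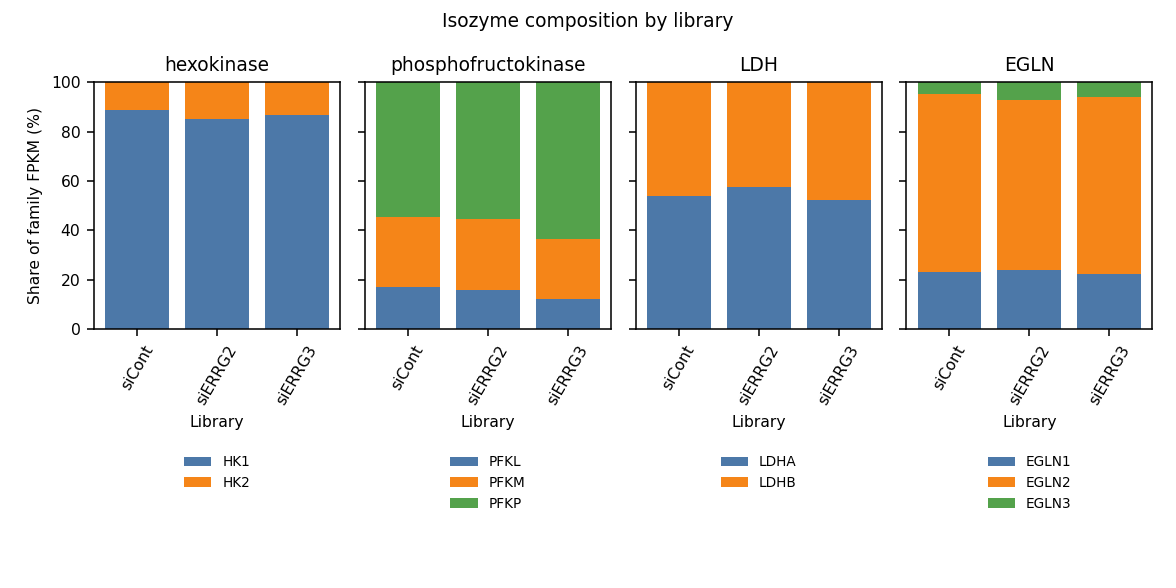
Stacked bars give the percent of a family's summed FPKM that each isozyme contributes in each library, for hexokinases, phosphofructokinases, lactate dehydrogenases and EGLN hydroxylases. PFKP reaches 63.5% of the phosphofructokinase level in the siERRG3 bar, and LDHA takes 57.5% of the lactate dehydrogenase level in the siERRG2 bar.

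The other enzymes of the upper pathway stayed within 1.2-fold in each comparison. GPI, the isomerase after hexokinase, had 14298, 13276 and 14037 counts across siCont, siERRG2 and siERRG3. ALDOA, the main aldolase, ranged from 26316 counts in siCont to 28310 in siERRG3, and its brain isozyme ALDOC from 902 in siERRG2 to 1014 in siERRG3. ALDOC was 3.23% of the aldolase level with siCont, 3.00% with siERRG2 and 3.33% with siERRG3. TPI1, which interconverts the triose phosphates made by aldolase, had 18330, 18744 and 16918 counts.

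In the lower pathway, from GAPDH to lactate dehydrogenase, none of the 7 enzymes was called in either ESRRG library against siCont. Their log2 fold changes lay between -0.25 (PKM) and 0.21 (LDHA) in siERRG2 and between -0.18 (LDHA) and 0.17 (GAPDH) in siERRG3. At their depth these small differences still exceeded counting error for 6 of the 7 in siERRG2, all but LDHB. LDHA, the isozyme that favours lactate, had 36881 counts with siCont, 43155 with siERRG2 and 33118 with siERRG3. It was above siCont in siERRG2, at 1.16 (1.14 to 1.17), below it in siERRG3, at 0.883 (0.870 to 0.896), and lower in siERRG3 than in siERRG2 by more than 1.2-fold, at 0.763 (0.752 to 0.774). PGAM1, the mutase of this arm, showed the same order with 12238, 14038 and 11555 counts and a ratio of 0.819 (0.799 to 0.839) between the ESRRG libraries.

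LDHB, which favours the return of lactate to pyruvate, had 18429, 18792 and 17764 counts. The ratio of LDHB to LDHA counts was 0.872 times that of siCont in siERRG2 (0.850 to 0.893) and 1.07 times in siERRG3 (1.05 to 1.10). PKM, the pyruvate kinase gene, had 29806, 25350 and 29277 counts and was lowest in siERRG2, at 0.841 (0.827 to 0.855), just inside the 1.2-fold line. PGK1 had 23458, 22347 and 21854 counts. ENO2, a textbook neuroendocrine marker, made up 2.75%, 2.55% and 2.43% of the FPKM of ENO1 and ENO2, and its ratio to ENO1 counts was 0.924 (0.883 to 0.967) and 0.881 (0.841 to 0.922) times that of siCont.

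The kinases that regulate glycolysis or the use of its pyruvate were PDK1, PFKFB3 and PFKFB4. PDK1, a mitochondrial kinase that inhibits pyruvate dehydrogenase and is a classical HIF target, had 1792 counts with siCont, 1894 with siERRG2 and 1287 with siERRG3. Its ratio to siCont was 1.05 (0.979 to 1.12) for siERRG2 and 0.706 (0.657 to 0.759) for siERRG3. PFKFB3, which makes the activator of phosphofructokinase, had 1585, 1346 and 1941 counts, and was lowest in siERRG2, at 0.840 (0.780 to 0.903), and highest in siERRG3, at 1.204 (1.13 to 1.29). PFKFB4, its HIF-induced relative, had 187, 173 and 221 counts, with intervals that included 1 against siCont and a ratio of 1.27 (1.04 to 1.56) between siERRG3 and siERRG2. In siERRG3 against siERRG2, where 51.7% of all genes were called, PDK1 was called lower and both PFKFB genes higher.

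Of the HIF subunits, ARNT had the largest difference that rested on high counts. ARNT, gene 405, on chromosome 1 from 150795547 to 150876768 in GRCh38, encodes the partner that every HIF alpha subunit needs to bind DNA. It had 1873 counts with siCont, 1777 with siERRG2 and 978 with siERRG3, with a ratio to siCont of 0.938 (0.878 to 1.001) for siERRG2 and of 0.514 (0.475 to 0.555) for siERRG3. On the log2 scale ARNT differed from siCont by -0.09 in siERRG2 and by -0.96 in siERRG3. All of its counts were whole numbers. ARNT2, a relative with 121, 112 and 155 counts, made up 4.12% of the summed ARNT and ARNT2 level with siCont, 4.002% with siERRG2 and 9.38% with siERRG3.

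HIF1A had 3024, 3534 and 2855 counts across siCont, siERRG2 and siERRG3. It was within 1.2-fold of siCont in both, at 1.16 (1.10 to 1.21) and 0.928 (0.882 to 0.977), and lower in siERRG3 than in siERRG2, at 0.804 (0.765 to 0.844). EPAS1, which encodes HIF-2α, had 14 counts with siCont, 3 with siERRG2 and 4 with siERRG3. Its ratios of 0.212 (0.0390 to 0.759) and 0.281 (0.0673 to 0.895) rest on so few counts that their size is nearly unknown, and EPAS1 was at most 0.347% of the summed HIF1A and EPAS1 level.

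Among the hydroxylases and VHL, only EGLN3 was called in any comparison. EGLN3, itself a HIF target, had 68 counts with siCont, 110 with siERRG2 and 84 with siERRG3. The ratio to siCont was 1.60 (1.17 to 2.20) for siERRG2 and 1.22 (0.872 to 1.70) for siERRG3, and the ESRRG libraries were not distinguishable from each other at this depth, at 0.760 (0.565 to 1.02). EGLN1, the main oxygen sensor of the family, had 527, 574 and 484 counts, with intervals that included 1 against siCont. VHL had 1615, 1606 and 1663 counts and was within counting error in all 3 comparisons. EGLN2 was the most abundant hydroxylase, with 72.2%, 68.8% and 71.9% of the EGLN level, and EGLN3 contributed 4.66%, 7.02% and 5.82%.

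The remaining HIF targets had no common direction. ADM, the vasodilator peptide adrenomedullin, had 42 counts with siCont, 90 with siERRG2 and 59 with siERRG3. It was 2.12-fold higher in siERRG2 (1.45 to 3.13), and its ratio of 1.38 in siERRG3 had an interval of 0.914 to 2.10. BNIP3, a receptor for the removal of mitochondria, had 1854, 2096 and 1438 counts, with ratios of 1.12 (1.05 to 1.19) for siERRG2 and 0.763 (0.711 to 0.818) for siERRG3. NDRG1, a gene that many stresses induce, had 25, 8 and 28 counts and was lowest in siERRG2, at 0.316 (0.123 to 0.724). VEGFA, the vascular growth factor, had 745, 872 and 778 counts and ratios of 1.16 (1.05 to 1.28) and 1.03 (0.928 to 1.14), so that it was called in neither library.

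Set directly against each other, siERRG3 was lower than siERRG2 for 10 of the 32 members, or 31.2% beside 25.3% of all genes compared, and higher for 3, or 9.38% beside 26.4%. With an interval excluding 1 the counts were 9 of the 32 lower, beside 20.4% of all genes, and 3 of the 32 higher, beside 19.6%. The lower members were SLC2A1, PFKL, PGAM1, LDHA, PDK1, HIF1A, ARNT, EGLN3, BNIP3 and ADM, and EGLN3 was the only one whose interval included 1. PFKFB3, PFKFB4 and NDRG1 were higher. The HIF core stood in the promoters of 6 of the 9 lower members whose interval excluded 1, or 66.7%, beside 69.0% of all members with a promoter.

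Other genes of the same pathways were taken from lists drawn up by function, with earlier results of these data known. Of the 43 other glycolysis genes, 42 were in the table and 31 passed the filter. In siERRG2 4 were lower, or 12.9% beside 19.2% of all genes, and 6 higher, or 19.4% beside 16.4%, with a median of 0.007. In siERRG3 9 were lower, or 29.0% beside 25.1%, and 2 higher, or 6.45% beside 23.2%, with a median of -0.062. PDK2, another pyruvate dehydrogenase kinase, had 517, 394 and 350 counts in the same order of libraries and log2 fold changes of -0.41 and -0.58, but the first was -0.13 on the FPKM values. PDHA1, a subunit of pyruvate dehydrogenase, was at -0.31 in siERRG2 and -0.08 in siERRG3. PGAM2, the muscle mutase, was higher in siERRG2 with 83 counts against 49, and ENO3, the muscle enolase, in siERRG3 with 132 against 87.

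Among 16 other regulators of the HIF pathway, all of which passed the filter, OS9 alone was called in siERRG2, at -0.32, which is 6.25% beside 35.5% of all genes. In siERRG3 2 were lower and 2 higher, together 25.0% beside 48.3%. OS9, a lectin of the endoplasmic reticulum, was at -0.53 in siERRG3, and ELOB, a subunit of the VHL ligase, at 0.38.

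The list of 42 other HIF targets, of which 38 passed the filter, had more members higher than lower in siERRG2 and more lower than higher in siERRG3. In siERRG2 5 were lower, or 13.2% beside 19.2% of all genes, and 11 were higher, or 28.9% beside 16.4%, with a median log2 fold change of 0.057. In siERRG3 18 were lower, or 47.4% beside 25.1%, and 4 were higher, or 10.5% beside 23.2%, with a median of -0.223. Set against siERRG2, siERRG3 was lower for 18 of the 38, or 47.4% beside 25.3%, and higher for 6, or 15.8% beside 26.4%, with a median of -0.246 beside 0.014 over all genes compared. No test was made of these shares, which come from 1 library each and from a list chosen with earlier results known.

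On the lower side, the largest differences of this list in siERRG3 were those of RRAGD, a GTPase of amino acid sensing, with 2743, 2740 and 1300 counts, and PPFIA4, a liprin, with 863, 769 and 424. CA12, a carbonic anhydrase of the cell surface, had 197, 363 and 99 counts, so that it was highest in siERRG2 and lowest in siERRG3, at log2 differences of 0.86 and -1.002. MXI1, a repressor that opposes MYC, followed the same order with 1475, 1804 and 796 counts. ANKZF1, a factor of ribosome quality control, had 625, 691 and 365. All 5 of these genes were lowest in siERRG3, but they were named for being lower there than in siCont, so this adds no support.

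Other genes of the list were highest in siERRG2. VLDLR, a lipoprotein receptor, had 91, 180 and 79 counts, and P4HA1 and P4HA2, the catalytic subunits of collagen prolyl hydroxylase, had 484, 746 and 519, and 299, 520 and 344. PIM1, a survival kinase, and ZNF395, a zinc finger protein, were lowest in siERRG2, at log2 differences of -0.81 and -0.55. Among the 4 called higher in siERRG3, HMOX1, the haem-degrading enzyme also induced by oxidative stress, had 176, 202 and 491 counts, PLIN2, a lipid droplet protein, had 57, 80 and 130, and BHLHE40, a circadian repressor, had 428, 523 and 581. All 3 were highest in siERRG3. The genes of this paragraph were named for their differences from siCont, so their order of libraries adds no support.

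**Figure D4:**
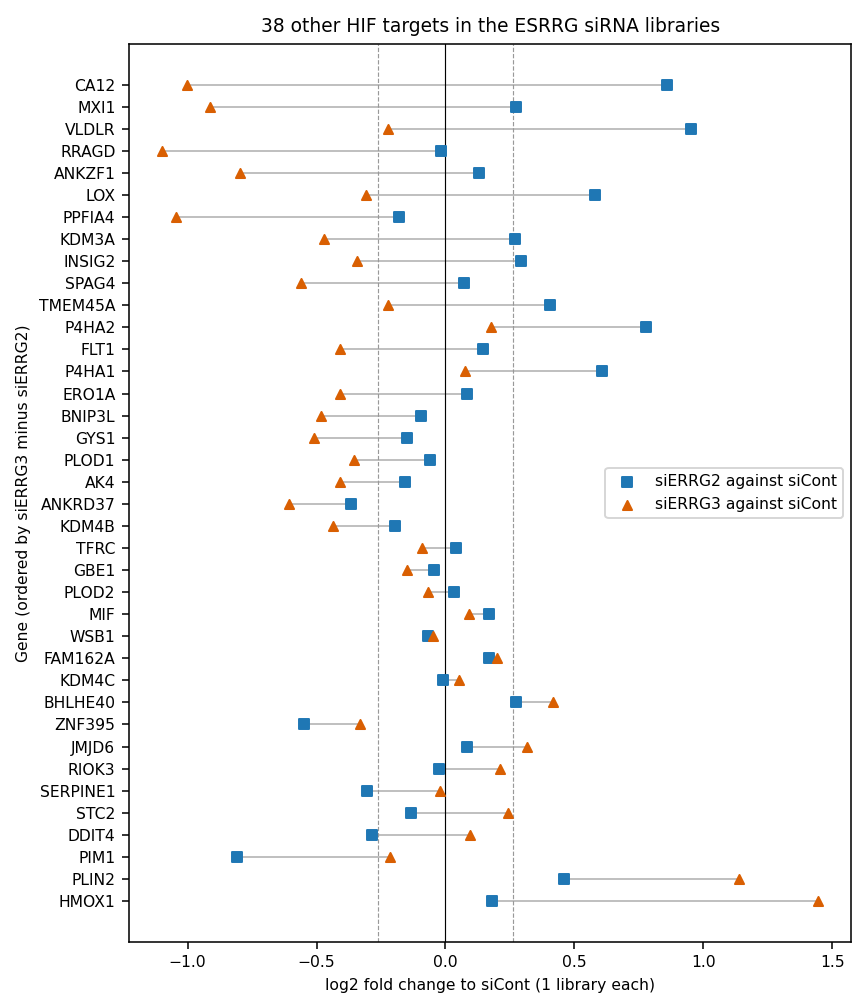
The plot gives, for the 38 other HIF targets that passed the low-count filter, the log2 fold change to siCont in siERRG2 and in siERRG3, ordered by the difference between the ESRRG libraries, with dashed lines at 1.2-fold. CA12 spans 0.86 to -1.002 at the top, and HMOX1 reaches 1.45 in siERRG3 at the bottom.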

How the data were processed

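RNA of H128 cells was sequenced in 3 libraries, 1 per condition. The authors aligned the reads to GRCh37/hg19 with BWA and Bowtie 2 according to the methods, while the submitters' processing notes name TopHat2, HTSeq and DESeq2 without a role. The labels name paired-end and the methods single-end sequencing, the table's coordinates are GRCh38, and no label ties an siRNA sequence to a library. The authors deposited estimated counts (expected counts) per gene, not normalized. For 17 of the 34 members these were not whole numbers (tolerance 0.005) in at least 1 library, as happens where reads are shared between similar genes. Those members are less certain, among them HK1, HK2, PFKM, PFKP, PGAM1, LDHA, PDK1 and BNIP3. The authors also deposited expression values that behave as FPKM, of which the unit is not named. The deposited log2 ratios, p-values and adjusted p-values of the authors' own comparisons were not used.

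Counts were rounded, filtered at 10 counts in at least 1 library and scaled by TMM (edgeR 4.0.16, R 4.3.3). Log2 fold changes used a prior count of 2. Intervals of count ratios were exact binomial, and those of isozyme ratios exact conditional (SciPy 1.17.1), both at 95% and for counting error only. With 1 library per group no test was made. Calls and intervals were run on simulated counts that held counting error only, with changes of 1.5-fold or 2-fold. Such counts cannot show how far libraries of the same condition differ. Alternatives were the size factors of DESeq2 1.42.0, total counts, FPKM with a pseudocount of 0.1, omission of the low-count filter, a stricter one (mean count 50), a prior count of 0.5, and other thresholds. Members, lists and alternatives were chosen with earlier results of these data known. The genes named were ESRRG, all members and, from the lists, in each comparison to siCont up to 5 lower and 5 higher genes with the largest change past 1.2-fold, an interval excluding 1 and a mean of at least 50 counts. EGLN2, ENO2 and ARNT2, outside that rule, were named after their values were seen, as relatives of members.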

Additional observations from a re-analysis of the deposited data

Results flagged for a closer look

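Among the 53 members and named genes of the lists, 7 differed from siCont in opposite directions in the ESRRG libraries, with intervals of the count ratio that excluded 1 in both. The difference between the effects was not tested against replicates, since each group was 1 library. In siERRG3 against siERRG2, the log2 difference was -0.288 for PGAM1, -0.390 for LDHA, 0.520 for PFKFB3, -0.315 for HIF1A and -0.551 for BNIP3, which are members. It was -1.861 for CA12 and -1.186 for MXI1, from the list of other HIF targets. Only PFKFB3 of these 7 was higher in siERRG3. The 5 members are 15.6% of the 32 compared, and 10.4% of all 14031 genes compared met the same condition. Intervals are narrower at high counts, and all genes include many of low count. In siERRG2 and siERRG3 against siCont, PGAM1 (0.181 and -0.107), LDHA (0.210 and -0.179) and HIF1A (0.208 and -0.107) stayed within 1.2-fold. PFKFB3 (-0.252 and 0.268) and BNIP3 (0.160 and -0.390) passed 1.2-fold in siERRG3 only. CA12 and MXI1 had been named for their large differences from siCont, the values used here, so they add no support.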

How the results depend on the processing

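No paired analysis was possible because each group was 1 library, and for the same reason no replicate could be left out. At 2-fold in place of 1.2-fold, 3 members were called in siERRG2 against siCont (9.38% beside 3.62% of all genes), 1 in siERRG3 against siCont (3.12% beside 5.57%) and 1 in siERRG3 against siERRG2 (3.12% beside 6.88%). At 1.5-fold, 4 were called in siERRG2 against siCont (12.5% beside 11.3%), 3 in siERRG3 against siCont (9.38% beside 18.4%) and 3 in siERRG3 against siERRG2 (9.38% beside 20.7%). Under the other planned settings the 3 counts of called members stayed within 1.5 times the reported ones. Of the log2 fold changes of members and named genes recomputed under 6 settings, 917 stayed within the interval for counting error, 10 lay outside it and 0 changed sign where called, and 8 crossed the 1.2-fold line. In siERRG3 against siCont, EGLN3 fell inside that line on the FPKM values, at 0.23. In siERRG3 against siERRG2, PFKM passed it at -0.27 with the size factors of DESeq2, and EPAS1 at 0.36 with a prior count of 0.5. The other crossings were PFKM in the same comparison on FPKM (-0.27) and with no filter (-0.27), PDK2 on FPKM against siCont in siERRG2 (-0.13) and between the ESRRG libraries (-0.35), and PDHA1 on FPKM between them (0.27). Of 33 isozyme ratios recomputed from FPKM, 0 lay outside the interval. The cause of these differences was not tested. Depth limits what can be said of EPAS1, NDRG1, SLC2A3, CA9 and SLC16A3, with fewer than 50 counts in each library.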
